A study of Mus musculus with 5 samples.

Results

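Genes for amino acid transporters were followed in hair follicle stem cells of the mouse, isolated by sorting at postnatal day 75 from the skin of the back. They were taken by name from the deposited table: protein-coding genes whose symbols begin with Slc1a, Slc7a, Slc36a, Slc38a or Slc43a and a digit, together with Slc3a1 and Slc3a2. The pattern took 43 of 55357 genes, and no expression value entered it. It also took in Slc7a6os, which is named for its place opposite Slc7a6 and is not a transporter gene, so 42 of the 43 belong to transporter families. The 3 PRC1 i2KO libraries (replicates 1, 2 and 3) carried the genotype K15-CrePR1:Ring1a-/-, Ring1bflox/flox. The 2 Control libraries (replicates 1 and 3) carried Ring1a-/-, Ring1bflox/flox and no Cre. Both groups therefore lacked Ring1a, and both were treated on the skin with 1% RU-486, once a day for 10 days beginning at day 50, with skin collected 15 days after the last treatment. CrePR1 is a Cre recombinase that RU-486 switches on, and the keratin 15 promoter drives it in bulge cells of the follicle. Cells were sorted for EpCAM, high α6-integrin and CD34 and against Sca1. The comparison asks what deleting Ring1b on a Ring1a-null background, in the presence of Cre, changes in the transcripts of these cells.

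Cells take up amino acids through carriers that differ in substrate and in what drives them. Heteromeric exchangers pair an Slc7 light chain, which does the transport, with an Slc3 heavy chain that brings it to the membrane, and they trade one amino acid for another. Cationic carriers of the Slc7 family bring in arginine and lysine. The Slc1 family holds the sodium-driven glutamate carriers and neutral amino acid exchangers, and the Slc38 family holds sodium-coupled carriers of glutamine, alanine and other small neutral amino acids. Some Slc36 carriers run on protons and some act at the lysosome, and Slc43 carriers let large neutral amino acids through by facilitated diffusion. Transcripts of several of these genes rise through the transcription factor ATF4 when amino acids are short.

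Libraries held between 9675996 and 21102727 estimated reads in PRC1 i2KO, against 8270419 and 32463173 in Control. Levels are given as CPM (read counts relative to library size, scaled between libraries), or as the deposited TPM, which alone correct for gene length. Rnf2, the gene of Ring1b, averaged 48.3 ± 1.82 CPM in PRC1 i2KO (SD, n = 3) and 62.8 ± 7.22 CPM in Control (SD, n = 2), but reads over a whole gene do not show whether its floxed exons were deleted. The 8 bulge markers, Cd34 and Krt15 among them, summed to 4798 to 6776 CPM in PRC1 i2KO and to 19497 and 20531 CPM in Control, with 6 of 8 lower. Cd34 itself stood at 20.2 ± 14.8 CPM in PRC1 i2KO and 1623 ± 105 CPM in Control, although every library was sorted as CD34-positive. Markers of neighbouring epithelium moved the other way: 7 of 7 upper follicle markers rose (sums of 8340 to 8539 CPM in PRC1 i2KO, 579 and 811 CPM in Control), as did 9 of 9 sebaceous gland markers (3161 to 3731 CPM, against 483 and 498 CPM), 9 of 9 suprabasal markers (2710 to 3866 CPM, against 1257 and 1261 CPM) and 8 of 8 markers of cycling cells (344 to 531 CPM, against 19.6 and 38.9 CPM). None of these epithelial and cycling markers was at 0 reads in a whole group. Over all tested genes, 18.8% were called higher and 15.1% lower. Fibroblast markers summed to 32.7 to 33.0 CPM in PRC1 i2KO and 71.8 and 73.8 CPM in Control. Of 6 listed, 4 were tested, with 1 higher and 3 lower, and Lum was at 0 in both Control libraries. Melanocyte markers summed to 65.4 to 70.3 CPM in PRC1 i2KO and 156 and 170 CPM in Control. Of 7 listed, 5 were tested, with 2 higher and 1 lower, and Tyr was at 0 in both Control libraries. Mitf made up most of the melanocyte sum, and without it the other 6 markers summed to 25.3 to 29.1 CPM in PRC1 i2KO and 5.10 and 7.26 CPM in Control. Immune markers summed to 69.6 to 102 CPM in PRC1 i2KO, of which Cd74 made up most, and 21.8 and 28.2 CPM in Control. Of 6 found by name, 4 were tested, with 1 higher, and Lyz2 was at 0 in all 5 libraries. Endothelial markers summed to at most 3.90 CPM in any library, and none of the 2 tested was called. The part of these shifts in the transporter results was not tested. The labels do not say that libraries of a group came from separate animals, so p-values measure only the spread between these libraries, which may be technical. In sorted bulk RNA, fewer cells of a type and less RNA per cell cannot be told apart.

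Of the 43 genes, 27 had enough reads to be tested, 6 had a few reads and 10 had none. A gene was called when its adjusted p in edgeR's quasi-likelihood test, corrected over all 15665 tested genes, was under 0.05. By that rule 7 transporter genes were higher in PRC1 i2KO, 5 were lower and 15 did not pass. The 12 calls make up 44.4% of the 27 tested genes, where 33.9% of all tested genes were called. Higher calls took 25.9% of them against 18.8% of all tested genes, and lower calls 18.5% against 15.1%. The median log2 fold change was -0.09 over the 27 genes and -0.0060 over all tested genes. The PRC1 i2KO and Control libraries did not overlap in 23 of the 27 (85.2%), against 59.5% of all tested genes. They were also apart in all 12 called genes, but a call from the same libraries favours this, so it adds no evidence. Genes kept by a filter on low counts include some that passed it through 1 group alone, so these shares describe the tested genes and not all 43.

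The called genes fell into 2 size classes. All 7 genes that rose did so by more than 2-fold: Slc1a1, Slc7a2, Slc1a3, Slc43a2, Slc38a4, Slc7a5 and Slc7a1, in order of fitted size. The first place of Slc1a1 is not firm, since its size rests on 4 Control reads. Of the 5 that fell, Slc38a2 and Slc1a4 did so by more than 2-fold, and Slc7a6, Slc38a7 and Slc38a9 by 1.37-fold to 1.40-fold.

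**Figure D1:**
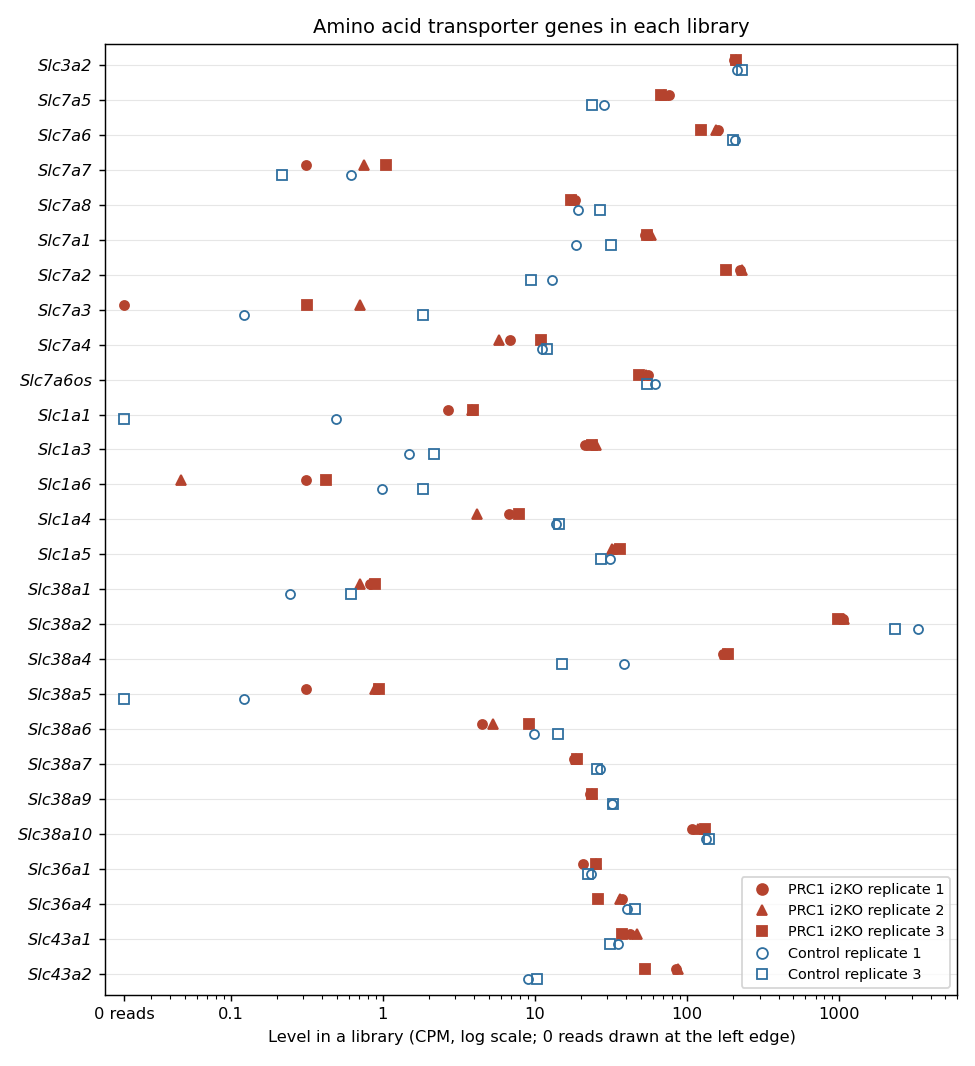
Level of the 27 tested genes in each library, in CPM on a log scale, with PRC1 i2KO libraries as filled red symbols and Control libraries as open blue symbols; values of 0 reads are drawn at the left edge. Slc38a2 lies far to the right of every other gene in all 5 libraries, and the 2 groups are well apart for Slc7a2, Slc1a3, Slc38a4 and Slc43a2.

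**Figure D2:**
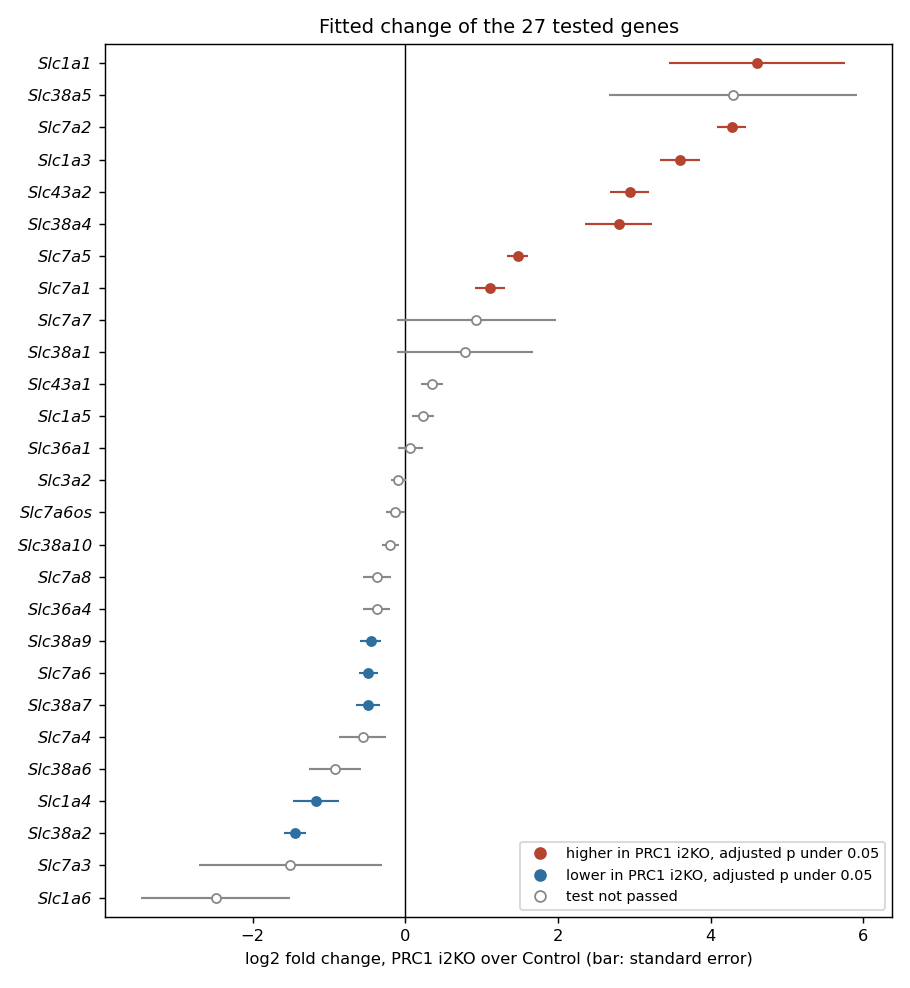
Fitted log2 fold change of each tested gene, PRC1 i2KO over Control, with its standard error; red and blue points passed the test as higher and lower, open points did not. The wide bars belong to genes with few reads, such as Slc38a5, Slc1a6 and Slc7a3.

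Among the heteromeric exchangers, the shared heavy chain hardly moved while 2 of its light chain partners went in opposite directions. Slc3a2 (ENSMUSG00000010095) encodes the heavy chain 4F2hc, also called CD98, to which most light chains of this group bind. It stood at 205, 209 and 211 CPM in PRC1 i2KO and at 213 and 231 CPM in Control. The groups lay side by side without overlapping, and the difference did not pass (log2 fold change -0.09, SE 0.10, edgeR adjusted p = 0.497). On the length-corrected scale it was the second most abundant of the 42 genes in all 5 libraries, at 199 to 219 TPM in PRC1 i2KO and 234 and 253 TPM in Control.

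Slc7a5 (ENSMUSG00000040010), the light chain LAT1 that brings in leucine and other large neutral amino acids, had 76.5, 70.8 and 67.8 CPM in PRC1 i2KO, against 28.4 and 23.7 CPM in Control. Every PRC1 i2KO library was more than 2-fold above either Control library, a 2.77-fold rise (log2 fold change 1.47, SE 0.13, edgeR adjusted p = 3.67e-05). Slc7a8, the related light chain LAT2, had 18.3, 18.1 and 17.3 CPM in PRC1 i2KO and 19.2 and 26.8 CPM in Control, and did not pass (log2 fold change -0.37, SE 0.19, edgeR adjusted p = 0.153). LAT1 and LAT2 share many substrates, so their ratio was taken within each library from TPM: there were 4.89, 5.45 and 4.81 Slc7a5 transcripts per Slc7a8 transcript in PRC1 i2KO, against 2.11 and 1.03 in Control. The lowest ratio in PRC1 i2KO was thus above the higher of the 2 Control ratios.

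Slc7a6 (ENSMUSG00000031904) encodes y+LAT2, which exports arginine in exchange for glutamine and sodium, and was the most abundant light chain in every library. Its level was 159, 155 and 123 CPM in PRC1 i2KO, against 208 and 201 CPM in Control, with replicate 3 lowest. The fall of 1.40-fold passed the test (log2 fold change -0.49, SE 0.12, edgeR adjusted p = 0.0132) but was not called without Control replicate 1 (adjusted p = 0.0648) or Control replicate 3 (0.0560). Slc7a6os, the gene opposite it, had 55.8, 54.1 and 48.2 CPM in PRC1 i2KO and 61.3 and 54.4 CPM in Control, overlapping ranges that did not pass (edgeR adjusted p = 0.444). In the annotation used here for gene structure (GENCODE M21), no exon base of Slc7a6 lies in an exon of Slc7a6os.

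The remaining light chains were scarce or absent. Slc7a7, encoding y+LAT1, had 0.31 to 1.05 CPM in PRC1 i2KO and 0.22 and 0.62 CPM in Control, overlapping ranges that did not pass (edgeR adjusted p = 0.537). Slc7a11, the cystine importer xCT that feeds glutathione synthesis, had 4, 20 and 8 reads in PRC1 i2KO and 0 and 11 reads in Control, too few to test. Relative to library size these were 0.41, 0.94 and 0.42 CPM in PRC1 i2KO and 0 and 0.34 CPM in Control. Slc7a9, Slc7a10, Slc7a12, Slc7a13 and Slc7a15 had no read in any library. Slc3a1, the heavy chain partner of Slc7a9, had no read in PRC1 i2KO and 1.3 estimated reads in Control replicate 1. In GENCODE M21, 26.5% of its exon bases lie in an exon of Prepl, on the other strand. Prepl had 284.7 estimated reads in that library, and whether the 1.3 reads came from Slc3a1 was not tested. With the floor set at 3 reads over a group, a count of 0 allows a level of up to 0.0600 CPM in PRC1 i2KO and 0.0744 CPM in Control, by counting error only. Summed over the 10 light chain genes, TPM reached 122, 145 and 133 in PRC1 i2KO and 151 and 171 in Control. The heavy chain Slc3a2 stood at 1.63, 1.51 and 1.60 times the summed TPM of its light chains Slc7a5, Slc7a6, Slc7a7, Slc7a8, Slc7a10 and Slc7a11 in PRC1 i2KO, and at 1.56 and 1.48 times in Control, a ratio whose ranges overlapped.

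Of the 4 tested genes of the cationic carrier family, Slc7a2 and Slc7a1 rose and the other two did not pass. Slc7a2 (ENSMUSG00000031596), which encodes the arginine and lysine carrier CAT2, had 223, 231 and 180 CPM in PRC1 i2KO, against 13.0 and 9.42 CPM in Control. Control levels were a small fraction of any PRC1 i2KO level, and the fitted rise was 19.4-fold (log2 fold change 4.28, SE 0.19, edgeR adjusted p = 8.41e-07). Leaving out 1 library at a time gave log2 values of 4.01 to 4.48. Among the 42 genes ranked by TPM, Slc7a2 came 6th in each PRC1 i2KO library, and 19th and 20th in the Control libraries. Slc7a1 (ENSMUSG00000041313), which encodes the widely expressed carrier CAT1, had 52.5, 58.2 and 54.6 CPM in PRC1 i2KO and 18.6 and 31.4 CPM in Control. The PRC1 i2KO libraries were close together, the Control libraries were not, and the rise was 2.16-fold (log2 fold change 1.11, SE 0.20, edgeR adjusted p = 0.00284).

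Slc7a4, a family member whose transport activity is not established, had 6.84, 5.78 and 10.9 CPM in PRC1 i2KO and 11.1 and 12.01 CPM in Control, and did not pass (log2 fold change -0.56, SE 0.31, edgeR adjusted p = 0.198). Without PRC1 i2KO replicate 3, which lay next to the Control libraries, it was called lower (log2 fold change -0.88, adjusted p = 0.0290). In GENCODE M21, 13.3% of its exon bases lie in an exon of P2rx6, on the other strand. P2rx6 had 0, 10 and 18 reads in PRC1 i2KO and 2 and 16 reads in Control. Slc7a3, encoding CAT3, had 0, 15 and 6 reads in PRC1 i2KO and 1 and 59 reads in Control, so that its fitted fall rested on Control replicate 3: without that library the log2 fold change was 1.498 (adjusted p = 0.710), in place of -1.51 (SE 1.198, adjusted p = 0.375). Slc7a14 had no read. Summed over the 5 cationic family genes, TPM was 72.2, 68.7 and 68.1 in PRC1 i2KO, against 18.1 and 24.9 in Control, and Slc7a2 supplied most of it in PRC1 i2KO (51.9, 51.2 and 42.6 TPM) and little of it in Control (2.97 and 2.48 TPM).

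In the Slc1 family, 2 glutamate carriers rose and 1 neutral exchanger fell. Slc1a3 (ENSMUSG00000005360), the glutamate and aspartate carrier GLAST, has served as a Cre driver to mark active stem cells in mouse skin. It had 21.2, 25.2 and 23.8 CPM in PRC1 i2KO, against 1.48 and 2.18 CPM in Control. The rise was 12.1-fold (log2 fold change 3.60, SE 0.26, edgeR adjusted p = 9.88e-06), and the call held with any 1 library left out. Slc1a1 (ENSMUSG00000024935), the glutamate and cysteine carrier EAAT3, had 26, 82 and 74 reads in PRC1 i2KO (2.69, 3.86 and 3.90 CPM), and 4 and 0 reads in Control (0.49 and 0 CPM). All 3 PRC1 i2KO libraries lay above both Control libraries (log2 fold change 4.61, SE 1.15, edgeR adjusted p = 0.0139). The size of this rise is poorly fixed by 4 Control reads: it was 2.81 on the log2 scale when Control replicate 3 was dropped and 9.17 when replicate 1 was, and the call was lost without PRC1 i2KO replicate 2 (adjusted p = 0.0527). In GENCODE M21, 31.9% of the exon bases of Slc1a1 also lie in an exon of a protein-coding gene on the other strand, 4430402I18Rik, and without a stated strand setting reads of the overlap cannot be assigned to either.

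Slc1a5 and Slc1a4 encode ASCT2 and ASCT1, sodium-dependent exchangers of serine, alanine and other neutral amino acids. Slc1a5 had 33.5, 32.3 and 36.4 CPM in PRC1 i2KO and 31.0 and 27.1 CPM in Control, a small difference that did not pass (log2 fold change 0.24, SE 0.14, edgeR adjusted p = 0.241). Slc1a4 (ENSMUSG00000020142) had 6.74, 4.18 and 7.90 CPM in PRC1 i2KO, against 13.8 and 14.3 CPM in Control. It fell 2.25-fold (log2 fold change -1.17, SE 0.30, edgeR adjusted p = 0.0139), a call lost without Control replicate 3 (adjusted p = 0.0776). Slc1a6, a glutamate carrier best known from cerebellum, had 3, 1 and 8 reads in PRC1 i2KO and 8 and 59 reads in Control (log2 fold change -2.49, SE 0.98, edgeR adjusted p = 0.0772), and was called lower without PRC1 i2KO replicate 3 (-3.25, adjusted p = 0.0381). Slc1a2, the main glutamate carrier of astrocytes, had 9 reads in PRC1 i2KO replicate 2 and 5 in Control replicate 3 and none elsewhere, and Slc1a7 had no read.

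Promoters were searched for TGATGNAAN, the letters of the composite element that ATF4 is known to bind. The window of Slc1a4 is shown as that of a called gene with a match, and the window of Slc7a11, which had too few reads to test, as a second layout of the same letters. Slc7a7, which did not pass, held matches in 2 overlapping windows that are not shown. Sequences are from RefSeq (build GRCm38.p6), 250 bases before to 50 after the transcript start, 5′ to 3′ on the gene's own strand, with matches on either strand in capitals. The files' own build is mm39, so these coordinates do not apply to it. Slc1a4 lies at chr11:20332664-20332963 on the minus strand, and its match begins 5 bases before the start and lies on the opposite strand. Slc7a11 lies at chr3:50443564-50443863 on the minus strand, and its 2 matches face each other, beginning 66 and 48 bases before the start.
Slc1a4: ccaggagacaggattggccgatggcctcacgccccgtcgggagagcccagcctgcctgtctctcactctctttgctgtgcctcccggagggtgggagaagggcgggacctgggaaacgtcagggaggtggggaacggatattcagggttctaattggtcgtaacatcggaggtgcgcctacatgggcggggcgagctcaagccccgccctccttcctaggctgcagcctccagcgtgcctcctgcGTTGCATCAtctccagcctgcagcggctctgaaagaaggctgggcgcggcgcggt
Slc7a11: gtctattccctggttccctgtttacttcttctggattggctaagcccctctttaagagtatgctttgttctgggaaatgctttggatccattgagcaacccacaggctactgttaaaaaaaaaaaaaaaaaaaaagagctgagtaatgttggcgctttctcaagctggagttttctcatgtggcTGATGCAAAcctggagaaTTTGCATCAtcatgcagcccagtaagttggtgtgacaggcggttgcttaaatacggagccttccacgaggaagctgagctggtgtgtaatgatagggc
Promoter sequences were found for 32 of the 43 genes, in 43 windows, of which 4 held the motif: 1 of Slc1a4, 1 of Slc7a11 and 2 of Slc7a7. The 2 Slc7a7 windows overlap, and 1 site lies in both and is counted for each. Of all 32851 promoter windows of this length, 3.95% held it. Of the 10 called genes with a promoter sequence, Slc1a4 alone held a match. No sequence was found for the called genes Slc7a5 and Slc7a2, so their promoters were not searched. A match says only that these letters stand in the window, and elements further from the start were not searched.

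The Slc38 family held the most abundant transporter transcript, Slc38a2, which fell, and its relative Slc38a4, which rose. Slc38a2 (ENSMUSG00000022462) encodes SNAT2, a sodium-coupled carrier of glutamine, alanine and other small neutral amino acids whose transcript is known to rise when amino acids are withdrawn. It had 1054, 1073 and 982 CPM in PRC1 i2KO, against 3297 and 2337 CPM in Control. Every PRC1 i2KO library was more than 2-fold below either Control library, though the Control libraries differed from each other by more than the PRC1 i2KO libraries did. The fall was 2.72-fold (log2 fold change -1.44, SE 0.15, edgeR adjusted p = 7.12e-05). It was -1.17 on the log2 scale when Control replicate 1 was dropped and -1.67 when Control replicate 3 was dropped, with the other omissions in between. In TPM, Slc38a2 was first among the 42 genes in all 5 libraries, at 337, 346 and 332 TPM in PRC1 i2KO and 1200.0 and 852 TPM in Control.

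Slc38a4 (ENSMUSG00000022464) encodes SNAT4, a carrier of small neutral and cationic amino acids whose gene is imprinted in the mouse. It had 173, 177 and 187 CPM in PRC1 i2KO, against 38.8 and 15.2 CPM in Control. The PRC1 i2KO libraries agreed closely and the Control libraries differed more than 2-fold from each other, with a fitted rise of 6.93-fold (log2 fold change 2.79, SE 0.44, edgeR adjusted p = 0.00912). The size was 2.21 on the log2 scale when Control replicate 3 was dropped and 3.56 when replicate 1 was, and the call was lost without PRC1 i2KO replicate 3 (2.80, adjusted p = 0.0806), although the fitted size was the same there. Within a library, Slc38a2 transcripts outnumbered Slc38a4 transcripts 4.86, 4.81 and 4.21 times in PRC1 i2KO, against 65.0 and 122 times in Control, in TPM.

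The lysosomal members Slc38a7 and Slc38a9 fell slightly. Slc38a7, encoding the lysosomal glutamine exporter SNAT7, had 18.1, 18.7 and 18.8 CPM in PRC1 i2KO, against 26.6 and 25.6 CPM in Control (log2 fold change -0.49, SE 0.15, edgeR adjusted p = 0.0326). Slc38a9, encoding the lysosomal arginine sensor that signals to mTORC1, had 23.0, 23.7 and 23.7 CPM in PRC1 i2KO, against 32.001 and 32.409 CPM in Control (log2 fold change -0.45, SE 0.14, edgeR adjusted p = 0.0308). For both genes the libraries of a group lay within a narrow band and the bands were apart, but neither call held when Control replicate 1 (adjusted p = 0.139 for Slc38a7 and 0.108 for Slc38a9), Control replicate 3 (0.124 and 0.144), PRC1 i2KO replicate 1 (0.0847 and 0.0849) or PRC1 i2KO replicate 2 (0.0835 and 0.0786) was left out. With the replicate numbers as a block, the adjusted p was 0.0821 for Slc38a7 and 0.0761 for Slc38a9.

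Slc38a10, a broadly expressed member, had 107, 118 and 131 CPM in PRC1 i2KO and 133 and 140 CPM in Control, and did not pass (log2 fold change -0.20, SE 0.11, edgeR adjusted p = 0.198). Slc38a6 had 4.46, 5.31 and 9.16 CPM in PRC1 i2KO and 9.85 and 14.1 CPM in Control (log2 fold change -0.93, SE 0.34, edgeR adjusted p = 0.0630). In both genes PRC1 i2KO replicate 3 was the library nearest the Control libraries, and without it both were called lower (adjusted p = 0.0367 for Slc38a10 and 0.00634 for Slc38a6). Slc38a5, encoding the glutamine carrier SNAT5, had 3, 19 and 18 reads in PRC1 i2KO and 1 and 0 reads in Control, a ratio of 32.3 with an exact 95% binomial interval of 5.47 to 1306 that covers counting error only. It did not pass in edgeR (adjusted p = 0.0676) but did in 3 of 12 alternative settings, DESeq2 among them (0.0327). Slc38a1, which encodes SNAT1, stayed at or under 0.89 CPM in every library and did not pass (edgeR adjusted p = 0.543). Slc38a3 had 30 reads in Control replicate 3 and none in the other 4 libraries, and Slc38a8 and Slc38a11 had no read.

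Of the Slc36 and Slc43 carriers, 1 of 4 tested genes was called. Slc43a2 (ENSMUSG00000038178) encodes LAT4, which lets leucine, phenylalanine and other essential neutral amino acids pass in either direction. It had 85.1, 87.5 and 53.2 CPM in PRC1 i2KO, against 8.98 and 10.4 CPM in Control. PRC1 i2KO replicate 3 was the lowest of its group, still several times either Control library, and the fitted rise was 7.66-fold (log2 fold change 2.94, SE 0.25, edgeR adjusted p = 8.68e-05). In TPM the levels were 25.5, 26.7 and 20.0 in PRC1 i2KO and 4.91 and 4.84 in Control, a ratio of group means of 4.94, where the ratio of mean CPM was 7.78. TPM divides by a transcript length estimated in each library, and some reads of this gene were shared out as fractions. In GENCODE M21, 9.18% of its exon bases lie in an antisense transcript, Gm45606. That transcript was counted at 2.65 ± 0.49 CPM in PRC1 i2KO (SD, n = 3) and 0.093 ± 0.132 CPM in Control (SD, n = 2). Its PRC1 i2KO reads were 27.23, 64.87 and 39.87, beside 820.77, 1860.13 and 1010.13 for Slc43a2. In each library these fractions add to a whole number, as when reads are shared between the genes. Whether Gm45606 rose apart from such shared reads was not tested.

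Slc43a1, encoding the related carrier LAT3, had 42.0, 46.9 and 37.5 CPM in PRC1 i2KO and 35.3 and 31.0 CPM in Control (log2 fold change 0.35, SE 0.15, edgeR adjusted p = 0.0934), and was called higher without PRC1 i2KO replicate 3 (0.44, adjusted p = 0.0313). Slc43a3, whose human counterpart carries purine nucleobases and not amino acids, had 5 reads in PRC1 i2KO, all in replicate 3 (0.26 CPM). It had 3 and 11 reads in Control (0.37 and 0.34 CPM). Slc36a1, the lysosomal proton-coupled carrier PAT1, had 20.7, 25.3 and 25.1 CPM in PRC1 i2KO and 23.3 and 22.3 CPM in Control, overlapping ranges and did not pass (edgeR adjusted p = 0.799, log2 fold change 0.06, SE 0.16). Slc36a4, encoding PAT4, had 37.6, 36.5 and 25.8 CPM in PRC1 i2KO and 40.6 and 45.5 CPM in Control, and did not pass (log2 fold change -0.38, SE 0.18, edgeR adjusted p = 0.129). Slc36a2 had 0, 5 and 6 reads in PRC1 i2KO and 1 and 0 reads in Control, and Slc36a3 had none.

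Summed over the 42 transporter genes, the deposited level was 1016, 1075 and 1043 TPM in PRC1 i2KO, against 1834 and 1525 TPM in Control. This lower sum came from 1 gene. Slc38a2 made up 33.1%, 32.2% and 31.8% of the sum in PRC1 i2KO and 65.4% and 55.9% in Control, and without it the other 41 genes summed to 679, 729 and 711 TPM in PRC1 i2KO and 634 and 673 TPM in Control. Slc38a2, Slc3a2 and Slc7a6 were the 3 most abundant genes in every library. Behind them, Slc38a4 ranked 4th in each PRC1 i2KO library but 8th and 16th in Control replicates 1 and 3. These sums and ranks are a description and were not tested.

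**Figure D3:**
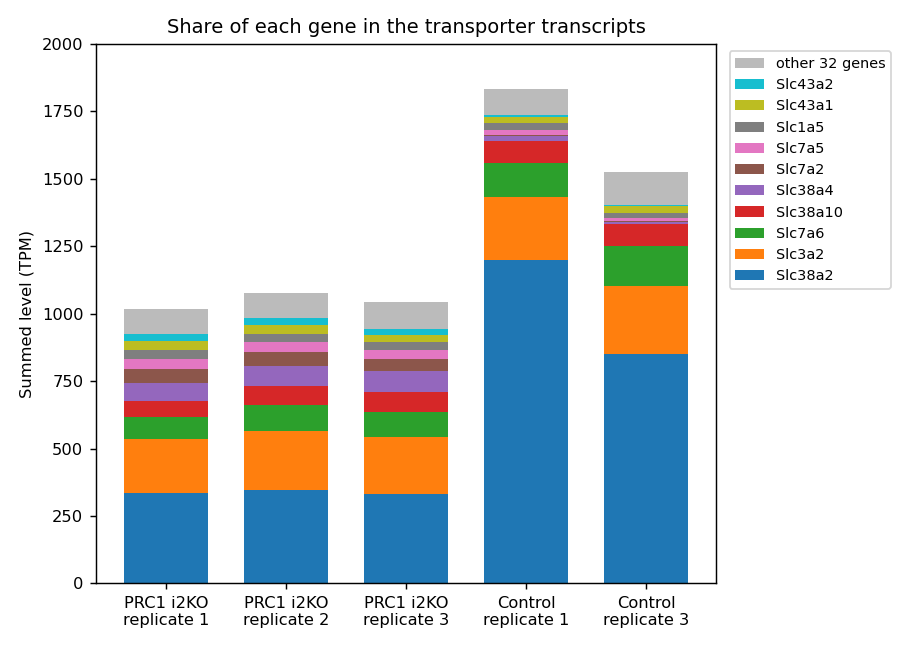
Summed TPM of the 42 transporter genes in each library, PRC1 i2KO at left and Control at right, split by gene. The Slc38a2 block is 337, 346 and 332 TPM high in PRC1 i2KO and 1200.0 and 852 TPM high in Control, while Slc38a4, Slc7a2, Slc7a5 and Slc43a2 take more of the bar in PRC1 i2KO.

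Spread between libraries differed from gene to gene. Over the 18 tested genes that averaged 10 CPM or more, the median coefficient of variation was 6.86% among the 3 PRC1 i2KO libraries and 9.34% between the 2 Control libraries. It was lowest in PRC1 i2KO for Slc3a2 (1.52%) and highest for Slc43a2 (25.4%), and highest in Control for Slc38a4 (61.8%) and Slc7a1 (36.3%). Control replicate 1 had the higher Slc38a2 and Slc38a4 levels of the 2, and Control replicate 3 the higher Slc7a1 level. Among the 12 called genes, the PRC1 i2KO library nearest to Control was replicate 1 for 5 genes, replicate 2 for 2 genes and replicate 3 for 5 genes. Replicate 3 also held the highest sum of bulge markers in its group (6776 CPM, against 4798 and 4979 CPM in replicates 1 and 2).

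**Figure D4:**
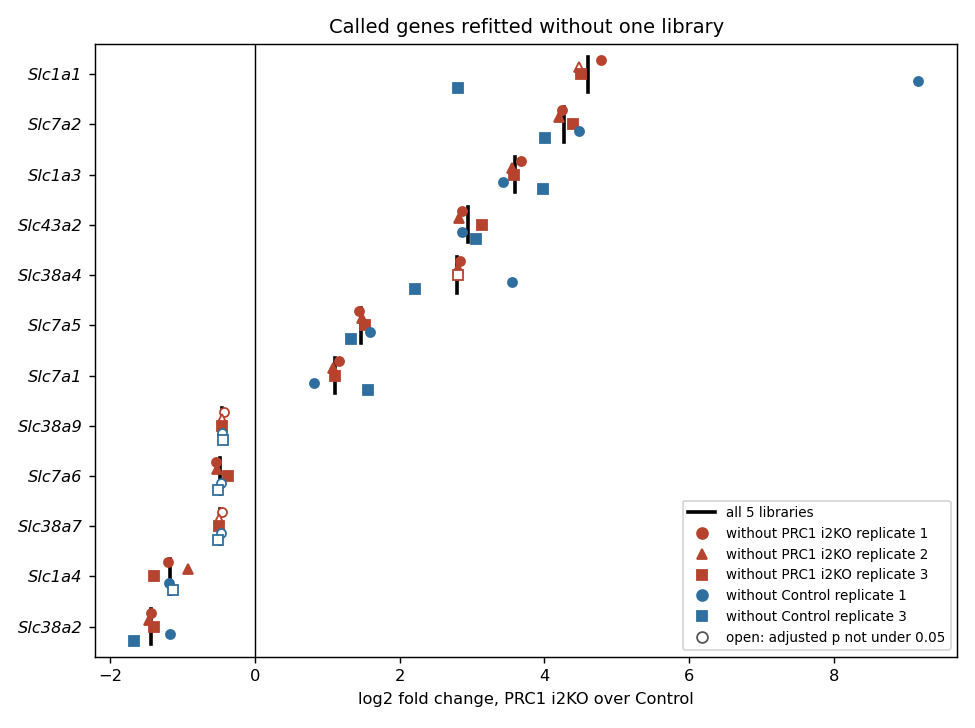
Fitted log2 fold change of the 12 called genes, PRC1 i2KO over Control, with all 5 libraries (black bars) and with each library left out in turn (symbols; open where the call is lost). All 12 keep their sign, Slc1a1 spans 2.81 to 9.17, and open symbols gather on the small falls of Slc38a7, Slc38a9 and Slc7a6.

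Other genes of amino acid handling were read from 4 lists. Of 24 tested genes of the ATF4 amino acid response outside the transporter families, 11 rose and 2 fell (45.8% and 8.33%, against 18.8% and 15.1% of all tested genes), with a median log2 fold change of 0.70. The 3 rises with the smallest adjusted p were those of serine synthesis genes: Psph averaged 52.9 ± 3.71 CPM in PRC1 i2KO and 15.3 ± 0.23 CPM in Control, Psat1 86.8 ± 9.07 and 26.5 ± 6.27 CPM, and Phgdh 117 ± 11.96 and 55.1 ± 4.07 CPM (SD, n = 3 and n = 2). The largest fitted rises of the list were those of Stc2 and Mthfd2 (28.3-fold and 8.33-fold), named after their values were seen. Atf5, a transcription factor of the same response, averaged 37.2 ± 5.17 CPM in PRC1 i2KO and 12.9 ± 0.84 CPM in Control. Atf4 itself stood at 321 ± 18.3 CPM in PRC1 i2KO and 313 ± 81.1 CPM in Control (edgeR adjusted p = 0.880), and Chac1, which degrades glutathione, fell to 0.67 ± 0.39 CPM in PRC1 i2KO, against 3.19 ± 0.020 CPM in Control (edgeR adjusted p = 0.0238); both are named after their values were seen. ATF4 activity is set largely by translation, which transcript levels do not show. Slc7a5 and Slc7a1, often counted with this response, rose, while Slc38a2, also counted with it, fell. Slc1a4, whose promoter window held the letters of the ATF4 element, fell 2.25-fold. The transporter genes were not sorted by membership of this response, so these genes are examples and give no share.

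Amino acid metabolism genes were called in both directions, 12 higher and 9 lower of 38 tested (31.6% and 23.7%, against 18.8% and 15.1% of all tested genes), with a median log2 fold change of 0.22. Oat, which links ornithine to proline and glutamate, averaged 161 ± 5.28 CPM in PRC1 i2KO and 67.2 ± 2.38 CPM in Control, and the alanine transaminase genes Gpt and Gpt2 rose 3.31-fold and 3.09-fold. Aldh4a1, a mitochondrial enzyme of proline breakdown, fell 1.59-fold. Without Control replicate 1 the counts were 7 higher and 5 lower, and without Control replicate 3 they were 6 and 5.

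The list of amino acid sensing and mTORC1 genes held 1 higher and 6 lower of 35 tested genes (2.86% and 17.1%, against 18.8% and 15.1% of all tested genes), with a median log2 fold change of -0.04. Lower calls numbered 4 by DESeq2 and 4 with unscaled library totals. They numbered 4 or 5 with a PRC1 i2KO library left out, so the lower share depends on the setting. Deptor, an inhibitor bound to mTOR, rose 4.24-fold, while Castor1, the cytosolic arginine sensor, fell 3.26-fold and Fnip2 and Tsc1 fell 1.79-fold and 1.66-fold. Mtor and Rptor, the kinase and its scaffold, averaged 76.0 ± 3.84 and 84.4 ± 4.74 CPM in PRC1 i2KO and 82.1 ± 0.89 and 93.3 ± 3.82 CPM in Control, and did not pass (edgeR adjusted p = 0.446 and 0.320); both are named after their values were seen.

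Of 22 tested amino acid transporters of other families, 3 rose and 5 fell (13.6% and 22.7%, against 18.8% and 15.1% of all tested genes). Slc6a14, a carrier of neutral and cationic amino acids, averaged 18.4 ± 3.88 CPM in PRC1 i2KO and 1.27 ± 0.12 CPM in Control (edgeR adjusted p = 1.95e-05). Slc6a15, a carrier of branched-chain amino acids and proline, had 231 reads over the PRC1 i2KO libraries and 1 in Control, a ratio of 186 (exact 95% binomial interval 33.1 to 7393, counting error only). The glycine carrier genes Slc25a38, of mitochondria, and Slc6a9, of the plasma membrane, fell 2.71-fold and 1.96-fold. Slc6a6, the taurine carrier, named after its values were seen, fell 6.65-fold, to 353 ± 162 CPM in PRC1 i2KO against 2347 ± 556 CPM in Control (edgeR adjusted p = 0.00791).

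**Figure D5:**
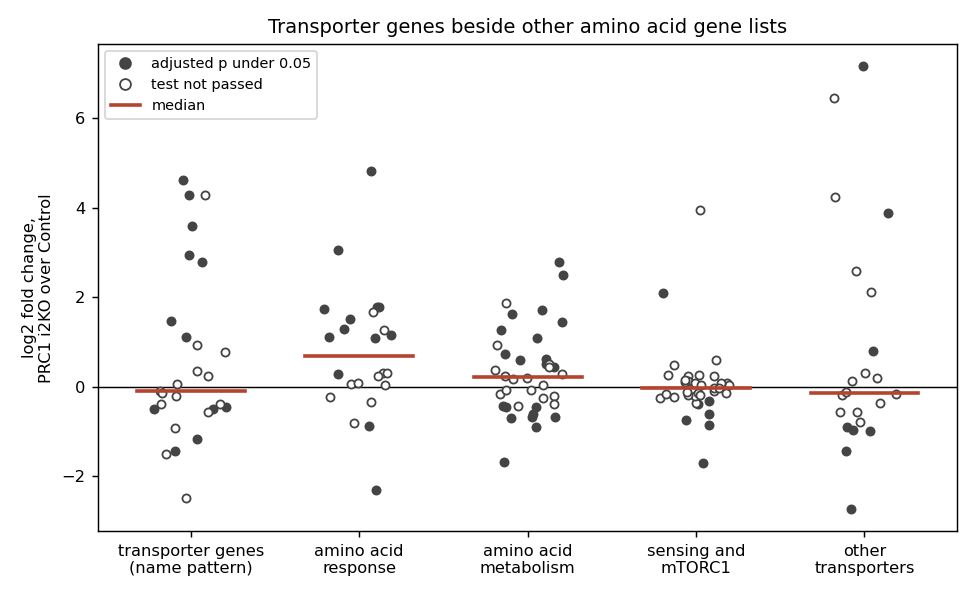
Log2 fold change, PRC1 i2KO over Control, of every tested gene in the transporter families and in the 4 other lists; filled points passed the test and red lines are medians. The median of the amino acid response list is 0.70, and that of the transporter genes is -0.09, with called genes on both sides.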

How the data were processed

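Expected counts and TPM per gene were made by the authors with STAR 2.7.9a and RSEM 1.3.3 on mm39, per the submitters' processing notes, which also list DESeq2 1.38.2; neither a strand setting nor an annotation is stated there. The deposited expected counts, rounded to integers, were fitted with edgeR 4.0.16 (R 4.3.3): filterByExpr, TMM scaling, robust quasi-likelihood F test of all 5 libraries, Benjamini-Hochberg adjustment over 15665 genes. Standard errors are the log2 fold change divided by the square root of F. Deposited TPM values served for levels between genes, and for limma 3.58.1 on log2(TPM + 1) and log2(TPM + 0.1) as alternatives, beside DESeq2 1.42.0. The families and lists were chosen with earlier results of these data known. Named genes are all tested transporter genes and, per list, the 4 called genes with the smallest adjusted p; others are marked. In tests on simulated data, fitted and planted changes correlated closely, but false calls exceeded the nominal rate. With gene-wise dispersions (spread set per gene) they also exceeded the limit first set. The pass rule of that check was relaxed after its first run, to that correlation alone. Calls are therefore less sure than their adjusted p states, most of all near the threshold. Gene overlaps were read from GENCODE M21 (GRCm38), another build than the files', as lengths only.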

Additional observations from a re-analysis of the deposited data

How the results depend on the processing

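The count of transporter genes called higher stayed between 6 and 8 under every alternative, and at 6 or 7 when a single library was dropped. The count called lower (5) was less stable: 2 with limma on log2(TPM + 1) without a filter, 3 with the replicate block, and 1 to 9 with 1 library left out (2 without Control replicate 1, 1 without Control replicate 3, 3 without PRC1 i2KO replicate 1 or 2, 9 without PRC1 i2KO replicate 3). Slc7a5, Slc7a2, Slc1a3, Slc38a2 and Slc43a2 were called under all 15 alternatives. Slc38a7 lost its call under 6 and Slc38a9 under 8, Slc7a1 and Slc1a4 under unfiltered TPM (adjusted p = 0.0697 and 0.0962), and Slc38a4 without a filter on low counts (0.0542). The sign turned only for Slc7a3, to 1.498 without Control replicate 3; its values with single libraries left out ran from -2.30 to 1.498. Over all genes, 5310 were called, against 2996 with unfiltered TPM and 3322 to 5856 with 1 library left out (lowest without Control replicate 3). Higher calls (2939) numbered 1886, 1909 and 1393 with log2(TPM + 1), log2(TPM + 0.1) and unfiltered TPM, and 1963 to 3099 with 1 library left out; lower calls (2371) numbered 1359 to 2757 with 1 library left out. The TPM scale shifted the median gene by -0.13 to -0.15 (log2). Metabolism genes called higher (12) numbered 7, 6 and 3 on the same TPM settings and 6 to 13 with 1 library left out; those called lower (9) numbered 5 with unfiltered TPM and 5 to 10. Response genes called lower (2) numbered 1 under all 3 TPM settings and the replicate block, and 1 to 2 with 1 library left out. Sensing genes called higher (1) numbered 2 by DESeq2 and 2 without a filter on low counts, and 1 to 3 with 1 library left out, and transporters of other families called higher (3) numbered 5 by DESeq2. The cause of these shifts was not tested. Replicate numbers 1 and 3 are shared by both groups, but the correlation of deviations from the group means was 0.074 for number 1 and 0.115 for number 3, and 1 Control library carries another number in its description, so the numbers were not taken as pairs; with the replicate block 4421 genes were called. Where an arm was left with 1 Control library, that library was assumed to vary like the PRC1 i2KO libraries. With 2 Control libraries, genes with a few reads, such as Slc1a1, have poorly fixed sizes.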
